A study of Sus scrofa with 15 samples.

Results

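The growth hormone and insulin-like growth factor (IGF) axis was described in liver RNA of piglets by the mRNA of its receptors, its ligand and its carrier proteins. The members were GHR, IGF1, IGF2, IGF1R, IGFALS, IGFBP1, IGFBP2, IGFBP3, IGFBP4 and IGFBP5, and each was looked up by its gene symbol in a table that pairs pig Ensembl identifiers with symbols. Of the 10 members, 8 were paired with 1 of the 31908 genes of the count table, and these 8 had enough counts to be tested. IGF2 and IGFBP3 were not paired with an identifier in that table and were not analysed here.

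The libraries came from male piglets of a Duroc x Large White x Landrace cross. Piglets of the LPS group had been injected intraperitoneally with lipopolysaccharide (LPS), a cell wall component of Gram-negative bacteria, at 80 μg/kg, and those of the CON group with sterile saline. The liver was taken 4 h after the injection, and each group gave 3 libraries of fragmented polyadenylated RNA, the input fraction of an m6A immunoprecipitation experiment. No source used here gives the age of the piglets, and the labels number the libraries of a group without saying that each is a separate animal, so p-values measure only the spread between these libraries.

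Growth hormone from the pituitary binds its receptor GHR on hepatocytes, where the kinase JAK2 and the transcription factors STAT5A and STAT5B carry the signal to the IGF1 gene. The liver is the main source of circulating IGF1, which travels in the blood bound to IGF binding proteins, in part as a complex with the acid labile subunit that IGFALS encodes. The binding proteins set how much IGF reaches its receptor IGF1R, and endotoxin is known to make the liver less sensitive to growth hormone through inhibitors such as the SOCS proteins.

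Library totals lay between 5927348 and 10351491 counts for CON and between 4348478 and 19967417 for LPS, and the 8 members together held between 0.199% and 0.572% of a library. Levels are given as CPM, that is, counts scaled to library size with edgeR's TMM factors, which lay between 0.979 and 1.11 except in LPS replicate 3, the deepest library, where the factor was 0.735. LPS replicate 2 was closer to the CON libraries than to its own group, as its correlation across genes (Pearson, log2(CPM + 1)) was 0.932 to 0.954 with the CON libraries, 0.920 with LPS replicate 1 and 0.863 with LPS replicate 3. LPS replicates 1 and 3 correlated at 0.913 with each other and at 0.850 to 0.912 with the CON libraries. The liver label held in every library, as the 12 hepatocyte markers looked up had sums of 77075 to 95027 CPM in the CON libraries against 64711 to 126910 CPM in the LPS libraries. The summed level of 8 neutrophil markers was 37.5 to 68.9 CPM in the CON libraries against 123 to 348 CPM in the LPS libraries. The 11 Kupffer cell or macrophage markers had sums of 2011 to 3261 CPM for CON and 1376 to 2316 CPM for LPS. In bulk tissue, fewer cells of a type and less RNA per cell cannot be told apart.

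The comparison of the LPS group with the CON group asked how the axis stood in the liver a few hours after an endotoxin challenge. None of the 8 members passed the test over all genes (edgeR's quasi-likelihood test, a call needs a Benjamini-Hochberg adjusted p under 0.05 with more than a 1.5-fold change), which called 0.0548% of the 12774 tested genes higher and 0% lower. IGFBP4 had the lowest p of the members and was the only member whose LPS and CON values did not overlap, with LPS above CON as in 6.52% of all tested genes. At an unadjusted p below 0.05, 1 member was higher, against 6.18% of all genes, and 0 were lower, against 6.33%. The log2 fold change was above 0 in 5 members and below 0 in 3, with a median of 0.17 beside 0.01 over all tested genes.

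**Figure D1:**
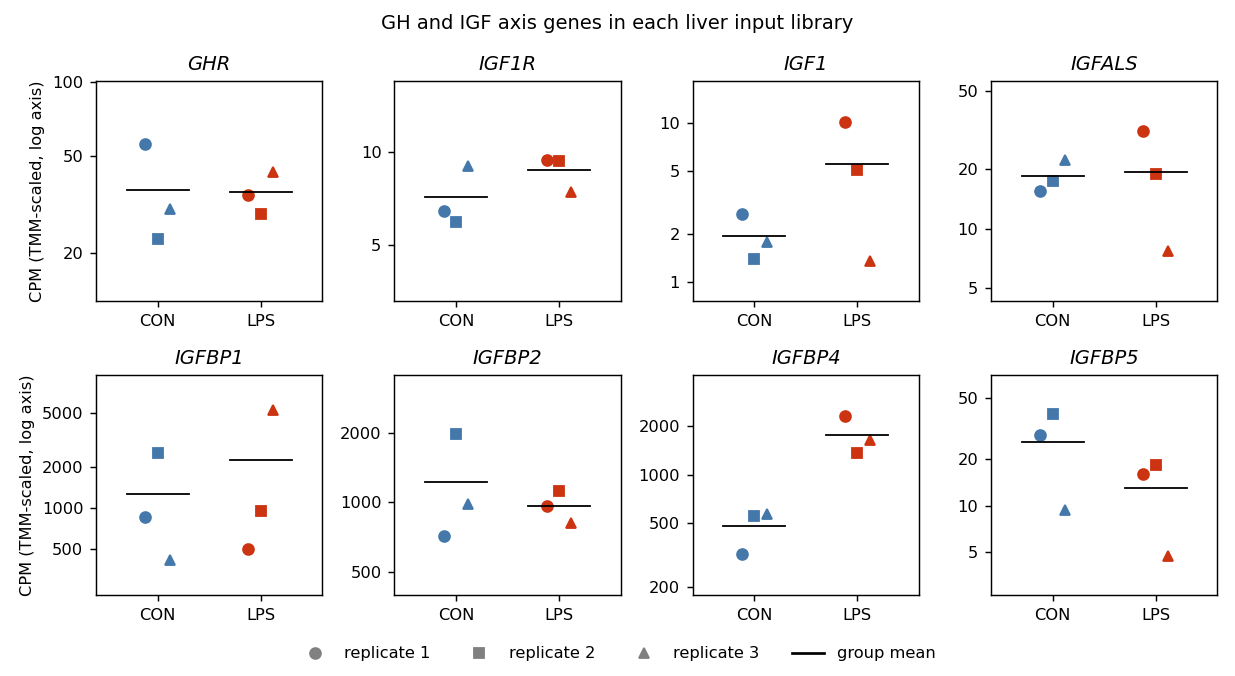
Level of each axis gene (TMM-scaled CPM, log axis, a separate range in each panel) in the 3 CON and the 3 LPS libraries, with points for libraries and a line for the group mean. The groups are apart only for IGFBP4, at 321 to 571 CPM in the CON group and 1353 to 2316 CPM in the LPS group, and IGFBP1 and IGF1 spread most among the LPS libraries.

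Both receptors were near their CON levels on average. GHR (ENSSSCG00000016866, chromosome 16 from 27126286 to 27422268, plus strand, no build named in the sources used here), the receptor through which growth hormone reaches hepatocytes, had 56.0, 23.0 and 30.3 CPM in CON replicates 1, 2 and 3 against 34.7, 29.0 and 43.1 CPM in the 3 LPS replicates. All 3 LPS values lay inside the CON range. The log2 fold change of GHR was -0.03 (SE 0.38, 95% interval -0.88 to 0.81), with an adjusted p of 0.984 in edgeR. The interval leaves room for a sizeable difference either way. A gene on the opposite strand overlaps GHR, with 259 counts in all against 2047 for GHR, and the sources used here do not say whether counting used the strand. IGF1R (ENSSSCG00000030560, chromosome 1 from 137387925 to 137690666, minus strand), the receptor tyrosine kinase that binds IGF1, had 6.43, 5.94 and 9.0 CPM in the CON group and 9.38, 9.33 and 7.44 CPM in the LPS group. LPS replicates 1 and 2 lay above every CON library and LPS replicate 3 within the CON range. Its log2 fold change was 0.28 (SE 0.35, 95% interval -0.50 to 1.06), with an adjusted p of 0.777 in edgeR.

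IGF1 (ENSSSCG00000000857, chromosome 5 from 81775970 to 81848037, plus strand), the hormone that carries most of the growth-promoting action of the axis, was the least abundant member per length. It had 2.68, 1.41 and 1.78 CPM in the CON libraries and 10.2, 5.07 and 1.37 CPM in the LPS libraries. LPS replicates 1 and 2 lay above every CON library, and LPS replicate 3 lay below all of them. LPS replicate 3 was within counting error of CON replicate 2, whose exact 95% Poisson interval was 0.643 to 2.67 CPM. These levels rested on 30, 9 and 18 counts in CON and 47, 31 and 20 counts in LPS. For LPS replicate 1 the exact 95% Poisson interval was 7.53 to 13.6 CPM and for LPS replicate 3 it was 0.834 to 2.11 CPM, so these libraries differed by more than counting error, which is all that such an interval covers. This gave IGF1 a log2 fold change of 1.44 (standard error 0.68, 95% interval -0.09 to 2.96, unadjusted p = 0.0616, edgeR adjusted p = 0.430). Without LPS replicate 1 the log2 fold change was 0.66, and without LPS replicate 3 it was 1.95, with edgeR adjusted p values of 0.866 and 0.133.

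IGFALS (ENSSSCG00000008013, chromosome 3 from 40174764 to 40177785, plus strand), whose product stabilises IGF complexes in the blood and is made mainly by hepatocytes, had 15.5, 17.5 and 22.3 CPM in the CON group and 31.2, 19.0 and 7.71 CPM in the LPS group. LPS replicate 1 was the highest of the 6 libraries and LPS replicate 3 the lowest, as was also seen for IGF1, where the lowest place was within counting error. The group means were 18.4 ± 3.54 and 19.3 ± 11.7 CPM (SD, n = 3), and the log2 fold change was 0.05 (SE 0.47, 95% interval -1.0 to 1.10), with an adjusted p of 0.981 in edgeR. The highest LPS value of IGFALS was 4.04 times the lowest, where the median gene had a ratio of 2.04 between its highest and lowest LPS libraries. LPS replicate 3 also had the highest hepatocyte marker sum, at 126910 CPM against 65369 and 64711 CPM in LPS replicates 1 and 2. Its largest parts there were FGB and APOA1, at 44960 and 29142 CPM. The markers did not all follow the sum, as ASGR1 had 161, 175 and 103 CPM in LPS replicates 1, 2 and 3. The sum is thus no measure of hepatocyte content, and its part in the levels of IGFALS and IGF1 was not tested.

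IGFBP1 (ENSSSCG00000016728, chromosome 18 from 50018487 to 50022799, minus strand) encodes a binding protein made by hepatocytes and known as acutely regulated, as insulin represses it and fasting or stress induces it. Its level was 855, 2515 and 414 CPM in CON replicates 1, 2 and 3, against 503, 958 and 5274 CPM in LPS replicates 1, 2 and 3. LPS replicate 3 alone lay above the CON range, and CON replicate 2 was the second highest library. IGFBP1 thus differed by 0.83 on the log2 scale (SE 0.89, 95% interval -1.18 to 2.84), with an adjusted p of 0.745 in edgeR. Without LPS replicate 3 the log2 fold change was -0.78 ± 0.72 (SE), with an adjusted p of 0.736 in edgeR, so the sign of the difference rested on that library. The highest CON value was 6.08 times the lowest, a ratio larger than that of 98.4% of the tested genes, and in the LPS group the ratio was 10.5, larger than that of 96% of them. Between 4187 and 16101 counts in CON and between 2308 and 77245 in LPS lay behind these levels, so counting error was small beside the spread among libraries.

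IGFBP2 and IGFBP5 lie next to each other on chromosome 15, on opposite strands and 6502 bases apart. IGFBP2 (ENSSSCG00000035392, chromosome 15 from 118822047 to 118850976, plus strand), another binding protein that the liver secretes, had 713, 1975 and 982 CPM in the CON libraries against 963, 1122 and 814 CPM in the LPS libraries. The LPS values all lay inside the CON range, whose upper end was set by CON replicate 2, the library that also had the highest IGFBP1 of its group. The log2 fold change was -0.34 (SE 0.41, 95% interval -1.26 to 0.58), with an adjusted p of 0.771 in edgeR, and without CON replicate 2 it was 0.19. IGFBP5 (ENSSSCG00000025924, chromosome 15 from 118857479 to 118878522, minus strand), a binding protein known from mesenchymal cells and extracellular matrix, had 28.7, 39.4 and 9.39 CPM in the CON group and 16.1, 18.3 and 4.71 CPM in the LPS group. CON replicate 3 lay below LPS replicates 1 and 2, so the groups overlapped although the LPS mean was lower, at 13.1 ± 7.31 against 25.8 ± 15.2 CPM (SD, n = 3). The log2 fold change of IGFBP5 was -1.0 (SE 0.61, 95% interval -2.36 to 0.36), with an adjusted p of 0.534 in edgeR. The summed level of 12 stellate cell or fibroblast markers was 1011 to 1427 CPM in the CON group and 815, 1586 and 846 CPM in LPS replicates 1, 2 and 3, and its part in the IGFBP5 levels was not tested.

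IGFBP4 (ENSSSCG00000017472, chromosome 12 from 21961645 to 21980211, minus strand) encodes a binding protein that holds IGF away from its receptor until the protease PAPPA cleaves it. It had 321, 554 and 571 CPM in CON replicates 1, 2 and 3, against 2316, 1353 and 1639 CPM in LPS replicates 1, 2 and 3. Every LPS library lay above every CON library, and LPS replicate 2, the library nearest to the CON group over all genes, was the lowest of the LPS libraries for IGFBP4 but still above the CON range. The group means were 482 ± 140 and 1769 ± 494 CPM (SD, n = 3), a 3.67-fold difference. The log2 fold change was 1.88 (standard error 0.38, 95% interval 1.04 to 2.72, unadjusted p = 0.000584), and its edgeR adjusted p of 0.104 missed the threshold. By p it stood at place 70 of the 12774 tested genes. The call depended on the test: DESeq2 gave an adjusted p of 0.000303 and called IGFBP4 higher, as it did 2.02% of all genes, and edgeR's likelihood ratio test gave 0.00263 with 1.59% of genes called higher. Without the filter on low counts edgeR gave 0.00201 and called 2.28% of genes higher. limma-voom gave an adjusted p of 0.102.

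Without LPS replicate 2, IGFBP4 passed edgeR's quasi-likelihood test, with a log2 fold change of 2.04 (standard error 0.40, adjusted p = 0.0141), in a fit that called 3.76% of its genes higher and 3.45% lower. DESeq2 without that library, chosen after the data were seen, gave an adjusted p of 1.87e-05 and called 5.86% of genes higher. Without CON replicate 1, its lowest library, the adjusted p was 0.586 (edgeR), and over every alternative that was fitted the log2 fold change stayed between 1.65 and 2.09. The spread of IGFBP4 inside the groups was ordinary. Its highest LPS value was 1.71 times its lowest, a ratio larger than that of 34.5% of the tested genes. Stellate cell or fibroblast markers (given above) and 9 endothelial markers, at 523 to 893 CPM in the CON libraries against 489 to 740 CPM in the LPS libraries, overlapped between the groups. The neutrophil marker sum did not overlap, nor did that of 7 cholangiocyte markers, at 26.8 to 40.6 CPM in the CON libraries against 65.0, 42.4 and 123 CPM in LPS replicates 1, 2 and 3. The part of either in the IGFBP4 levels was not tested.

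**Figure D2:**
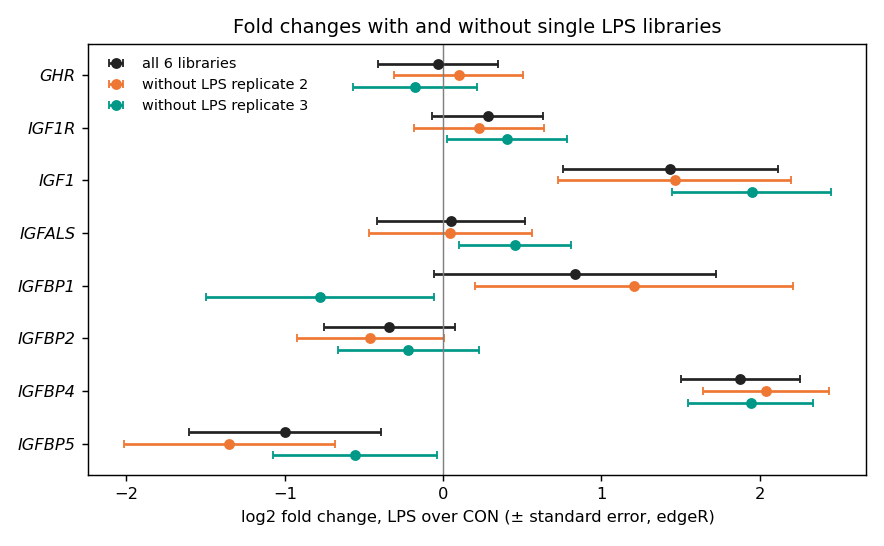
Log2 fold change of each axis gene, LPS over CON, from edgeR with all 6 libraries (black), without LPS replicate 2 (orange) and without LPS replicate 3 (green), with bars for the standard error. IGFBP4 lies between 1.88 and 2.04 in the 3 fits, while IGFBP1 goes from 0.83 to 1.20 without LPS replicate 2 and to -0.78 without LPS replicate 3.

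Levels of different genes were compared per length, as RPKM, that is, CPM divided by the gene length in kilobases. IGFBP1 was the most abundant member, with mean levels of 1507 ± 1324 RPKM in CON and 2682 ± 3146 RPKM in LPS (SD, n = 3), place 37 and 26 among the tested genes. IGFBP2 followed, with 861 ± 468 and 680 ± 108 RPKM, and IGFBP4 came next, with 116 ± 33.7 and 426 ± 119 RPKM, place 298 and 122. The IGFBP1 and IGFBP2 levels overlapped in both groups, so their order was not clear of the spread, while every IGFBP4 value lay below every IGFBP2 value of its group. IGFALS (9.07 RPKM in the CON group), GHR (7.61 RPKM) and IGFBP5 (4.30 RPKM) formed a lower tier, in which GHR overlapped with both of the others and IGFALS lay above IGFBP5 in every CON library. IGF1R at 1.12 RPKM and IGF1 at 0.354 RPKM were the lowest, IGF1 at place 12069 of 12774 in CON and 9905 in LPS. Values of IGF1 and IGF1R did not overlap in the CON group but did in the LPS group. The liver is known as the main source of circulating IGF1, yet in these counts on the deposited gene model IGF1 lay among the least abundant genes that could be tested.

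The summed RPKM of the 4 binding proteins measured among the axis members was used to describe their shares in each library. IGFBP1 held 63.6%, 66.3% and 37.3% of the sum in CON replicates 1, 2 and 3, against 32.7%, 50.6% and 86.7% in LPS replicates 1, 2 and 3. IGFBP2 held 31.3%, 30.6% and 52.2% in the CON group and 36.8%, 34.9% and 7.88% in the LPS group. IGFBP4 held 4.81%, 2.94% and 10.4% in the CON group and 30.3%, 14.4% and 5.43% in the LPS group. Thus the IGFBP4 share was above the CON range in LPS replicates 1 and 2 but within it in LPS replicate 3, where the IGFBP4 level itself was 1639 CPM and the IGFBP1 level was the highest of all libraries. The sum was 1605, 4535 and 1324 RPKM in CON and 1839, 2263 and 7269 RPKM in LPS. IGFBP3, a main carrier of IGF in the blood, is not part of this sum. Nor are IGFBP6 and IGFBP7, which were measured but are not axis members.

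**Figure D3:**
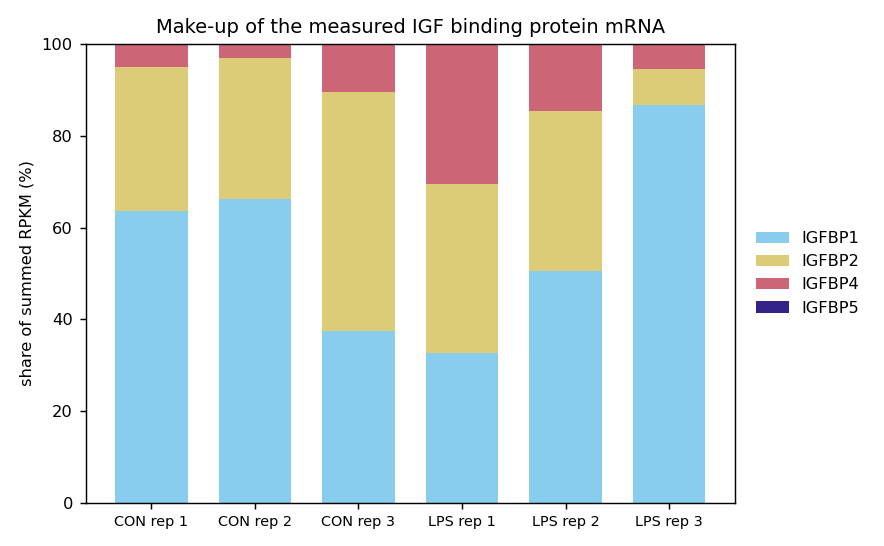
Share of the summed RPKM (%) held by IGFBP1, IGFBP2, IGFBP4 and IGFBP5 in each library, as stacked bars from 0 to 100. The IGFBP4 share reaches 30.3% in LPS replicate 1 and 14.4% in LPS replicate 2 but 5.43% in LPS replicate 3, where IGFBP1 holds 86.7%, and IGFBP5 is too small to be seen.

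Ratios of members within a library, on the log2 scale and per length, did not separate the groups. The IGFBP1 to IGF1 ratio was 11.01, 13.45 and 10.54 in the CON group and 8.32, 10.26 and 14.60 in the LPS group, a difference of -0.61 (two-sided exact permutation p = 0.8). The IGFBP2 to IGF1 ratio differed by -1.33 (exact permutation p = 0.3), and the IGF1R to GHR ratio by 0.26 (exact permutation p = 0.6). Adjusted over the 3 ratios, every p was 0.8, and 3 libraries against 3 cannot give an exact permutation p below 0.1.

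Downstream of GHR, none of the 15 tested genes of a list of growth hormone receptor signaling passed edgeR's quasi-likelihood test over all genes. At an unadjusted p below 0.05, 4 of the 15 were higher and 0 lower, where 6.18% and 6.33% of all tested genes were, and the list's median log2 fold change was 0.31 beside 0.01 over all tested genes. The 4 were SOCS3, CISH, PTPN1 and SOCS1, all inhibitors of cytokine receptor signaling and not of growth hormone signaling alone. The list was written with earlier results of these data known, so the count describes these genes and does not test the pathway. SOCS3, which blocks JAK kinases at their receptors, had 17.5, 45.1 and 27.6 CPM in the CON group and 289, 18.8 and 627 CPM in the LPS group. LPS replicates 1 and 3 lay far above the CON range, and LPS replicate 2 lay within it. Its log2 fold change was 3.38 ± 0.98 (SE), with an adjusted p of 0.230 in edgeR. CISH, a STAT5 target gene and inhibitor, had 23.7, 18.4 and 12.5 CPM in the CON group and 146, 13.4 and 127 CPM in the LPS group. SOCS1 had 18.9, 15.2 and 27.7 CPM in the CON group and 81.3, 9.0 and 129 CPM in the LPS group. PTPN1, a tyrosine phosphatase that acts on JAK2 and on the insulin receptor, had 25.6, 29.5 and 38.0 CPM in the CON group and 60.0, 30.4 and 231 CPM in the LPS group. In each of these genes LPS replicate 2 lay within or below the CON range and LPS replicates 1 and 3 above it, a pattern that IGFBP4 did not share. Their log2 fold changes were 2.39 for CISH, 1.83 for SOCS1 and 1.79 for PTPN1, with edgeR adjusted p values of 0.245, 0.364 and 0.316.

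Without LPS replicate 2, SOCS3, CISH, SOCS1 and PTPN1 passed the same test, with log2 fold changes of 3.94, 2.91, 2.36 and 2.24 and edgeR adjusted p values of 0.00184, 0.00186, 0.00576 and 0.0238. In that fit 3.76% of all genes were called higher. Without LPS replicate 3 none of the 4 passed, and the log2 fold changes were 2.38, 2.15, 1.14 and 0.56, with edgeR adjusted p values of 0.447, 0.423, 0.644 and 0.596. With all 6 libraries, DESeq2 called CISH higher (adjusted p = 0.00981), as it did 2.02% of all genes. The likelihood ratio test of edgeR called CISH and SOCS3 higher (adjusted p of 0.0414 and 0.0244), beside 1.59% of all genes. When the filter on low counts was left out, edgeR called all 4 higher, beside 2.28% of all genes. JAK2, STAT5A and STAT5B passed in none of the alternatives fitted, and their values with all 6 libraries follow. JAK2, the kinase bound to GHR, had a log2 fold change of 0.28 ± 0.38 (SE), with an adjusted p of 0.797 in edgeR. STAT5B was at 45.0 to 60.0 CPM in the CON group and 50.6 to 59.6 CPM in the LPS group, and its log2 fold change was 0.02 ± 0.28 (SE), with an adjusted p of 0.990 in edgeR. STAT5A had 12.9, 31.6 and 19.6 CPM in the CON group and 28.1, 26.8 and 78.2 CPM in the LPS group, a log2 fold change of 1.07 ± 0.50 (SE), with an adjusted p of 0.418 in edgeR. It was at 1.34 without LPS replicate 2 and 0.38 without LPS replicate 3 (edgeR adjusted p of 0.120 and 0.756). DESeq2 without LPS replicate 2, chosen after the data were seen, called SOCS3, CISH, SOCS1, PTPN1, STAT3 and BCL6 of this list higher and LEPR lower. That fit called 5.86% of all genes higher and 5.5% lower. SOCS2 was not paired with an identifier and was not analysed here.

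**Figure D4:**
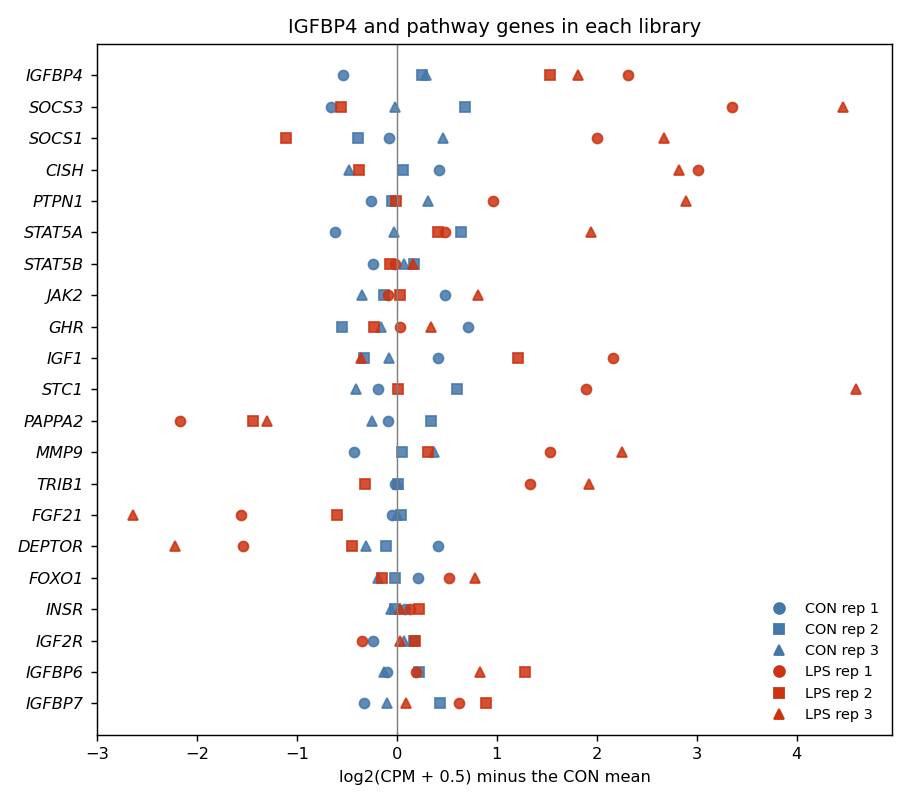
Level of IGFBP4 and of pathway genes in each library as log2(CPM + 0.5) minus the mean of the 3 CON libraries, with circles, squares and triangles for replicates 1, 2 and 3, CON in blue and LPS in red. LPS replicate 2 (red squares) lies within or below the CON points for SOCS3, SOCS1, CISH and PTPN1, whose LPS replicates 1 and 3 lie above them, and for IGFBP4 all 3 LPS points lie above the CON points.

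Of the 22 tested genes of insulin and IGF receptor signaling, 0 passed the test and the median log2 fold change was -0.02. INSR, the insulin receptor, had a log2 fold change of 0.13 ± 0.27 (SE), with an adjusted p of 0.883 in edgeR, and IGF2R, which takes up and clears IGF2, one of -0.04 ± 0.30 (SE), with an adjusted p of 0.977 in edgeR. FOXO1, the transcription factor that insulin signaling switches off and that drives IGFBP1, had 21.4, 18.1 and 16.0 CPM in the CON group and 26.6, 16.5 and 31.9 CPM in the LPS group, and its log2 fold change was 0.44 ± 0.34 (SE), with an adjusted p of 0.637 in edgeR. DEPTOR, an inhibitor of mTOR, was the only member of this list at an unadjusted p below 0.05, where 6.18% of all tested genes were higher and 6.33% lower. It had 13.2, 9.06 and 7.81 CPM in the CON group and 3.05, 7.03 and 1.71 CPM in the LPS group, all LPS values lying below the CON values, as in 9.8% of all tested genes. Its log2 fold change was -1.38 ± 0.53 (SE), with an adjusted p of 0.338 in edgeR. GRB2 and MTOR of this list had all LPS values above the CON values, as in 6.52% of all tested genes.

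Among the 20 tested genes of other IGF binding proteins and of the proteases and inhibitors that act on them, 0 passed the test, with 2 higher and 1 lower at an unadjusted p below 0.05 and a median log2 fold change of 0.05. These counts are near the 6.18% and 6.33% of all tested genes. PAPPA, the protease named above for IGFBP4, had too few counts to be tested. It had 3, 0 and 2 counts in the CON libraries and 13, 3 and 14 in the LPS libraries. PAPPA2, a protease that cleaves IGF binding proteins, had 1.61, 2.34 and 1.38 CPM in the CON group and 0, 0.327 and 0.410 CPM in the LPS group. All LPS values lay below the CON values, as in 9.8% of all tested genes, and at very few counts. The log2 fold change was -2.54 ± 0.73 (SE), with an adjusted p of 0.221 in edgeR. The likelihood ratio test of edgeR called PAPPA2 lower (adjusted p = 0.0207), as it did 1.19% of all genes. ADAM12 and PLG of this list also had all LPS values below the CON values. FURIN had all LPS values above them, as in 6.52% of all tested genes. STC1, a secreted glycoprotein whose family inhibits the PAPPA proteases, had 2.50, 4.69 and 2.08 CPM in the CON group and 12.2, 2.94 and 82.2 CPM in the LPS group. As for SOCS3, LPS replicate 2 lay within the CON range, and the log2 fold change was 3.43 ± 1.03 (SE), with an adjusted p of 0.244 in edgeR. Its size rested on LPS replicate 3, without which the log2 fold change was 1.32 (edgeR adjusted p = 0.426). With all 6 libraries, edgeR's likelihood ratio test called STC1 higher (adjusted p = 0.0309), as it did 1.59% of all genes. MMP9, a gelatinase that is also a neutrophil marker, had a log2 fold change of 1.83 ± 0.60 (SE), with an adjusted p of 0.268 in edgeR. The neutrophil marker sum was higher in all 3 LPS libraries, and its part in the MMP9 level was not tested. IGFBP6 and IGFBP7, the remaining binding proteins fixed for description, had log2 fold changes of 1.02 and 0.54 with edgeR adjusted p values of 0.441 and 0.559.

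Genes known to respond to growth hormone or to FOXO1 in liver were set beside the axis. Of 12 tested growth hormone-responsive genes, 0 passed the test, 9 had a log2 fold change below 0 and the median was -0.30 beside 0.01 over all tested genes. At an unadjusted p below 0.05, CISH (given above) was higher and FGF21 lower, where 6.18% and 6.33% of all tested genes were. FGF21, a hepatic hormone of fasting that dampens growth hormone action, had 66.8, 71.2 and 69.1 CPM in the CON group and 23.1, 45.3 and 10.7 CPM in the LPS group. Every LPS library lay below the narrow CON range, with LPS below CON as in 9.8% of all tested genes. The log2 fold change was -1.40 ± 0.47 (SE), with an adjusted p of 0.273 in edgeR. HSD17B2 and FGFR4 of the growth hormone-responsive genes also had all LPS values below the CON values. Of 14 tested FOXO1 target genes, 0 passed the test and the median was -0.03. TRIB1, a pseudokinase gene of hepatic lipid metabolism, was the only member of this list at an unadjusted p below 0.05, with 32.8, 33.6 and 33.6 CPM in the CON group and 84.4, 26.7 and 128 CPM in the LPS group (log2 fold change 1.26, standard error 0.49, edgeR adjusted p = 0.343). Only 2 of 3 IGF mRNA binding protein genes could be tested, with a median of -0.20 and 0 at an unadjusted p below 0.05. Without LPS replicate 2, DEPTOR and FGF21 were lower and STC1, MMP9 and TRIB1 higher past the test, with edgeR adjusted p values of 0.0273, 0.0156, 0.0148, 0.0261 and 0.0152, and PAPPA2 was not past it (edgeR adjusted p = 0.0967). SESN3, a FOXO1 target named after its values were seen, was also lower past the test in that fit (log2 fold change -1.88, edgeR adjusted p = 0.0415), which called 3.76% of all genes higher and 3.45% lower. With LPS replicate 2 kept and LPS replicate 3 left out, none of these genes passed, and MMP9 was at 1.21 and TRIB1 at 0.75 on the log2 scale (edgeR adjusted p of 0.472 and 0.529). With all 6 libraries and no filter on low counts, edgeR called FGF21 lower and STC1, MMP9 and TRIB1 higher. That fit called 2.28% of all genes higher and 1.48% lower.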

How the data were processed

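The authors deposited raw counts of reads per gene for 31908 Ensembl pig genes, not normalized, with coordinates and a gene length per gene, which the deposited table gives as a separate column and which was used for RPKM. Per the labels, the submitters' processing notes name cutadapt 1.9.3, HISAT2 and the builds galGal6 and hg38, neither of which is pig. The pig build and the counting program were not given in any source used here. The number of count columns left unmapped was 0. The labels list CON replicates 1 and 2 with 2 sequencing entries apiece, and the table has a single column for each. Symbols were available for 15029 genes. Depth ranged from 4348478 to 19967417 counts, and intervals of single counts cover counting error only.

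The analysis used edgeR 4.0.16 in R 4.3.3 (filterByExpr with a minimum count of 10, TMM, glmQLFit, glmQLFTest), after scripts were tested on simulated data. A call required an adjusted p (Benjamini-Hochberg) under 0.05 together with more than a 1.5-fold difference. SE denotes the log2 fold change over the root of edgeR's F statistic. The study's methods give no test specific to RNA-seq. Alternatives were RLE factors, library totals, DESeq2 1.42.0, edgeR's likelihood ratio test, limma-voom (limma 3.58.1), no filter, a floor of 10 counts per library, other fold thresholds, the replicate block and each library left out. DESeq2 without LPS replicate 2 was added after seeing the data. Ratios used a pseudocount of 0.5 counts, and those with IGF2 or IGFBP3 were not computed. The members and all lists were written from general knowledge with earlier results of these data known. Named genes were every member, a fixed set of pathway genes, and up to 4 genes per list with the smallest unadjusted p below 0.05. The immunoprecipitated libraries were not analysed here.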

Additional observations from a re-analysis of the deposited data

How the results depend on the processing

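Over all genes, edgeR's 7 higher and 0 lower calls became 8 and 1 with RLE factors, 11 and 1 with library totals, 536 and 349 without the filter, 0 and 0 with at least 10 counts in every library, 258 and 146 with DESeq2, 4 and 2 with limma-voom and 203 and 152 with the likelihood ratio test. Leaving out a library gave from 0 to 512 higher and 0 to 470 lower genes, the most without LPS replicate 2. DESeq2 without LPS replicate 2 gave 799 and 750. Members called higher went from 0 to 1, IGFBP4, without the filter, with DESeq2, with the likelihood ratio test, without LPS replicate 2 and with DESeq2 without that library, and stayed 0 otherwise. Its adjusted p over all alternatives ran from 1.87e-05 to 0.586. Genes of the other lists called higher and lower were 7 and 1 without the filter, 1 and 0 with DESeq2, 3 and 1 with the likelihood ratio test, from 0 to 7 and 0 to 3 with a library left out, and 10 and 7 with DESeq2 without LPS replicate 2. Among the calls of that last fit were PPARGC1A, higher, and ADAM12, MTTP and SERPINA6, lower. The cause of these shifts was not tested. Library totals moved the median log2 fold change of all genes from 0.01 to -0.12. IGF1 had too few counts to be tested with at least 10 in every library.

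Some log2 fold changes close to 0 turned sign. GHR was at 0.014 with RLE factors and with DESeq2, 0.047 with limma-voom, 0.15 with DESeq2 without LPS replicate 2, and between -0.28 and 0.41 with a library left out. IGFALS was at -0.23 with limma-voom and from -0.47 to 0.46 with a library left out, IGFBP1 from -0.78 to 1.83 and IGFBP2 from -0.62 to 0.19. The IGFBP1 to IGF1 ratio ran from -2.38 to 0.76 and the IGF1R to GHR ratio from -0.17 to 0.52 with a library left out.

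Deviations from the group mean correlated at -0.274, 0.232 and 0.0227 between same-numbered CON and LPS libraries. Between differently numbered ones the correlations were -0.268 to 0.236. With 3 libraries a group these values cannot decide whether the numbers pair samples, and no source used here states a pairing. With the replicate block edgeR called 42 higher and 9 lower genes and 0 members, IGFBP4 had an adjusted p of 0.0997, GHR a log2 fold change of 0.054 and IGFALS -0.12.

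With 3 libraries a group the intervals of the members are wide, and that of IGF1 rests on 9 to 47 counts per library.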
